A study of Mus musculus with 18 samples.

Results

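The cytosolic ribosomal protein genes are the genes that encode the structural proteins of the ribosome outside mitochondria. They were chosen by name: every symbol in the deposited expression table that consists of RPL or RPS and a number (with A, X or L endings), or is RPLP0, RPLP1, RPLP2 or RPSA, with pseudogene names left out. The rule gave 64 members among 16925 gene names, 37 of the large subunit and 27 of the small subunit. Of these, 60 had enough reads to be tested (33 large, 27 small). The other 4 were Rpl13 with 0 reads in all libraries together, Rpl24 and Rpl10l with 1 read each, and Rpl3l with 90 reads.

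The tissue was mouse brain around experimental brain metastases, resected as the peritumoral area when 10 days had passed since 40000 tumour cells were injected. The melanoma group (6 brains, replicates 1 to 6) had received B16-F10-BrM4 cells, a brain-tropic derivative of the mouse melanoma B16-F10. The breast group (6 brains, replicates 14 to 19) had received EO771-BrM3 cells, a brain-metastatic form of the mouse breast cancer line EO771. The lung group (6 brains, replicates 7 to 11 and 13) had received 482N1 lung cancer cells. All mice carried the genotype label WT, each model rests on 1 cell line, and a brain without tumour was not analysed here. Strain, sex and age were not given in the labels used here. The models were therefore set against each other, with melanoma over lung, breast over lung and melanoma over breast as the 3 comparisons, which share their libraries in pairs.

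A cytosolic ribosome holds a small subunit, which decodes the mRNA, and a large subunit, which joins amino acids and carries the exit tunnel of the new protein. Each ribosome needs its proteins in near-equal numbers, and their mRNAs are short and among the most abundant of a cell. Most of them begin with a C followed by an unbroken run of pyrimidines, the terminal oligopyrimidine tract, through which growth signalling by mTORC1 and the protein Larp1 controls their translation. Growing cells, tumour cells among them, are known to make many ribosomes.

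The mRNA starts are shown because this tract is the sequence feature by which the family is best known. The sequences are from RefSeq on GRCm38.p6, with 40 bases before the listed start and 20 from the start on, 5′ to 3′ on the gene's strand. Capitals mark the run that begins with C at the listed start and goes on through C or T without a break. The first 4 have long runs, and the last 2, from genes that figure in the comparisons, have none or a single C at that base.
Rpl15: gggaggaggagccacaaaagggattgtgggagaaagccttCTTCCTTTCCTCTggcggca
Rpl35: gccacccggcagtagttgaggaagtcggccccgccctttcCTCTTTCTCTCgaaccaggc
Rps6: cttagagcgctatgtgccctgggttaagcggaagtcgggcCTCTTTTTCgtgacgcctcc
Rpl38: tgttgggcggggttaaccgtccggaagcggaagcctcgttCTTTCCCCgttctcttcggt
Rps3: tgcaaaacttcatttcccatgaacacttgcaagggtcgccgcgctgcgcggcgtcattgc
Rps3a1: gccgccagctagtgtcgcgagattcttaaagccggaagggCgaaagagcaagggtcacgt

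The runs were 13 bases long in Rpl15, a large subunit protein, 11 in Rpl35, which sits near the exit tunnel, 9 in Rps6, the small subunit protein that S6 kinases phosphorylate, and 8 in Rpl38. Rpl15 lies at chr14:18270967-18271026 on the minus strand and Rpl38 at chr11:114668540-114668599 on the plus strand. Of the 49 members with a RefSeq start, 10 (20.4%) had such a run of at least 5 bases at a listed start, against 813 of 27025 genes (3.01%). A listed start may lie some bases away from the start used in these brains, and a window without the run says only that these letters were not there.

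The families of copies that many of these genes have left in the genome bear on the levels given here, though not on all alike. Rps3 and Rpl8 had 0 pseudogenes of their name in the count table. In the count table, 300 further genes were named as ribosomal protein pseudogenes, and for several members they held most of the reads. Rps16, a small subunit protein, had 902 reads over the 18 libraries, and 49529 when its 2 pseudogenes were added. Rps6 had 1268 reads, and 21833 with its 4 pseudogenes. Rpl38 had 733 reads and 17497 with pseudogenes, and Rps13 had 575 and 22238. The gene itself and its copies share stretches of identical sequence, and the sources used here do not say how reads that fit several places were counted.

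The 64 members differed widely in how much of their transcript was shared. The percentage of a member's 50-base stretches that also occurred in another gene's transcripts ran between 0% (Rpl3l) and 98.6% (Rps27). Pseudogenes were taken by name throughout, so that any copies under other names are left out of the sums with pseudogenes. Rpl6 had 0 pseudogenes of its name, yet shared 64.3% of its stretches with 12 other genes. The 21 members with the smallest shares had a median of 32421 reads, the 22 in the middle 12622.5, and the 21 with the largest shares 10723. Per kilobase of transcript the medians were 30808, 11397 and 14278 reads, so that the order of the middle and the most shared members turned round. The part of shared sequence in these read numbers was not tested. How reads from shared stretches were counted is not known, so that levels between members are uncertain. So is the presence of Rpl13 and Rpl24, both core ribosomal proteins but listed here at 0 and 1 reads. In the deposited expression table the rows named RPS18 and RPL36AL held the reads of 2 other genes, Gm11361 and Gm6525, and the values below are those of Rps18 and Rpl36al themselves.

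**Figure D1:**
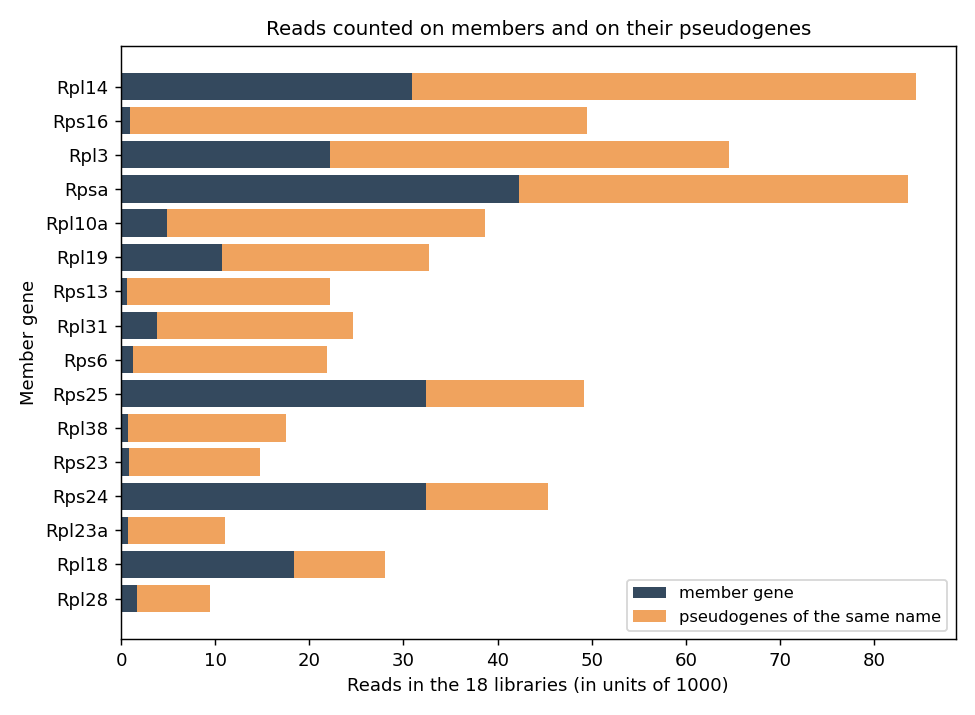
Reads over the 18 libraries (horizontal axis) counted on a member gene (dark) and on pseudogenes that carry its name (orange), for the 16 members with the most pseudogene reads. For Rps16, Rps13, Rps6 and Rpl38 the dark part is a small fraction of the bar.

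Library totals ran between 7366250 and 14533877 counts, so that 3 counts stood for 0.206 to 0.407 CPM (counts scaled to the library size) in a library. All CPM given here are on library sizes scaled by TMM factors. Neuron, astrocyte and oligodendrocyte markers were read in every library, except Tubb3, listed at 0 in all of them. Melanocyte markers summed to 3848 to 23575 CPM in melanoma libraries, 38 to 76 in breast libraries and 44 to 58 in lung libraries, and all 10 passed the test upwards in melanoma against both. Simple epithelium markers summed to 5 to 6 CPM in melanoma libraries, 67 to 167 in breast libraries and 311 to 1320 in lung libraries, with Cldn4 listed at 0 in melanoma and breast libraries. Microglia and macrophage markers summed to 332 to 576 CPM in melanoma libraries, 1259 to 2088 in breast libraries and 1191 to 2392 in lung libraries. The part of tumour and immune cells in the ribosomal protein values was not tested, and in bulk tissue fewer cells of a type and less RNA per cell cannot be told apart.

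Per kilobase of transcript, members with high mean levels over the 18 libraries were Rplp1 with 1510 CPM per kilobase, Rps15 with 1356, Rpl8 with 817 and Rps14 with 694. Rplp1 belongs to the stalk that recruits the translation factors, and Rpl8 sits close to the catalytic centre. Among members that were tested, Rps29 had the fewest reads, 342 in all. The order is bound to the uncertainty from shared sequence given above.

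The members moved together from library to library. Their summed level was 10342, 9593, 19368, 6812, 6453 and 6343 CPM in melanoma replicates 1 to 6. It was 9647, 10195, 12329, 12876, 25300 and 18374 CPM in breast replicates 14 to 19. In lung replicates 7, 8, 9, 10, 11 and 13 it was 13714, 7101, 12977, 6902, 11402 and 10556 CPM. The model means were 9819 ± 4979 CPM in melanoma, 14787 ± 6010 CPM in breast and 10442 ± 2890 CPM in lung libraries (SD, n = 6 each), and the ranges of all 3 models overlapped. As a share of all reads the members took between 0.623% (melanoma 6) and 2.46% (breast 18), and the highest library had 3.99 times the summed level of the lowest.

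Single members followed the sum. The highest library was melanoma 3, breast 18 or breast 19 for 55 of the 60 tested members, against 35.4% of all genes tested. The lowest was melanoma 4, 5 or 6 or lung 8 or 10 for 52 of 60, against 29.1% of all genes tested. The median member was 4.02 times higher in its highest library than in its lowest. Rps3, the member with the most reads, which lines the path where the mRNA enters, was 8.02 times higher in its highest library than in its lowest, with 502, 624 and 1829 CPM as lowest, median and highest melanoma library, 1097, 1476 and 4024 CPM in breast libraries and 619, 1109 and 1463 CPM in lung libraries. Rpl28, Rpl15 and Rpl23a in the heat map of members by library show weaker swings than their neighbours.

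**Figure D2:**
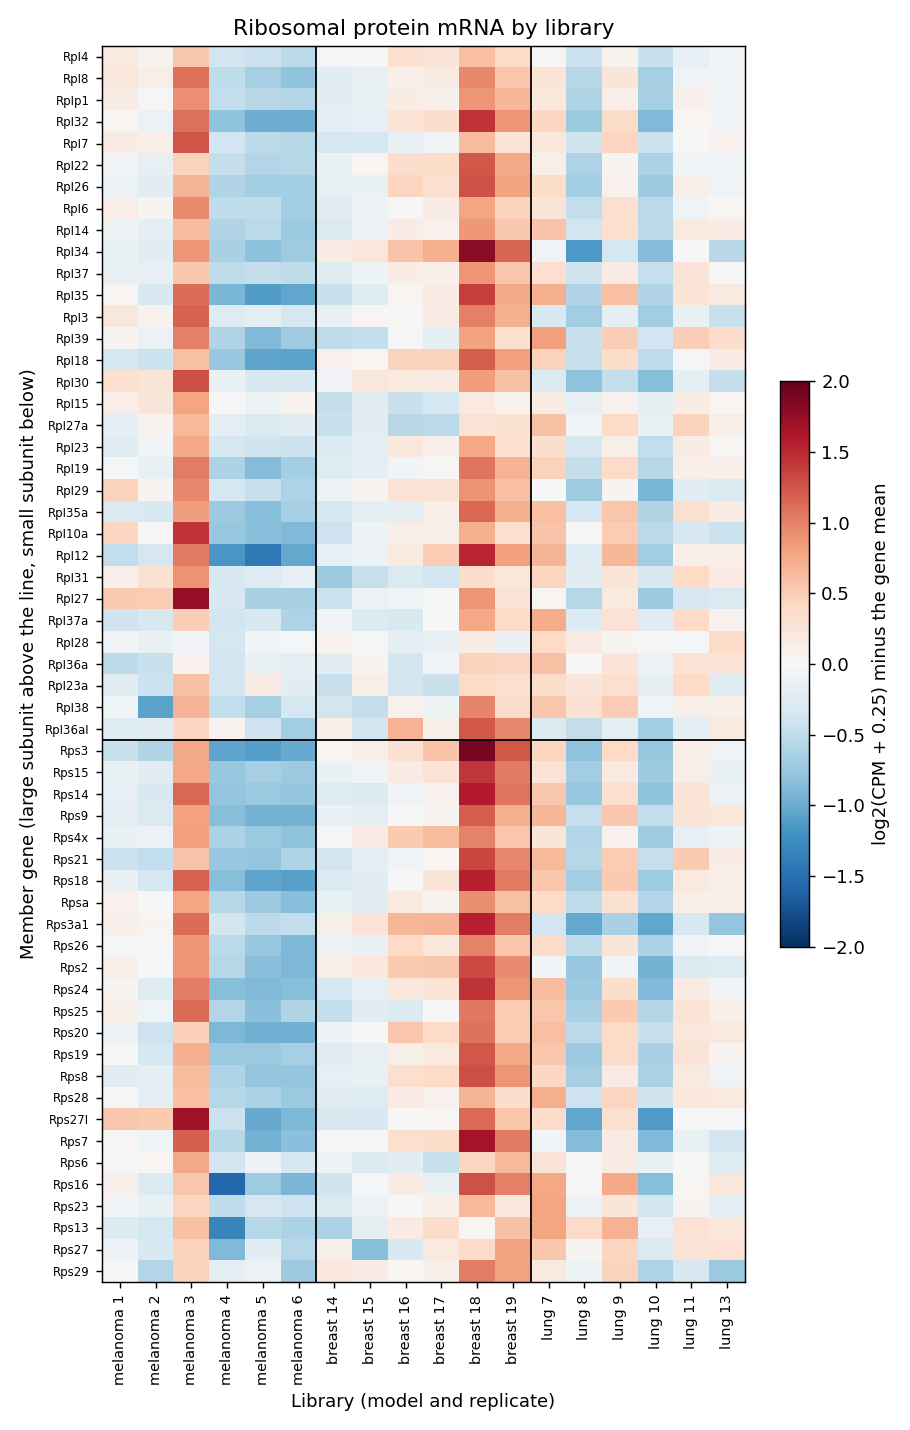
Heat map of 57 of the 60 tested members (rows, large subunit above the line and small subunit below, each by falling mean level) in the 18 libraries (columns by model). Colour is log2(CPM + 0.25) minus the mean of the gene, red above and blue below it, and melanoma 3, breast 18 and breast 19 are red over most rows while melanoma 4 to 6 are blue.

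Transcript length moved with this pattern. The median transcript length was 896 bases for the members and 2787 bases for all genes tested. For a length slope, each gene's log2 CPM was first centred on its mean over the 18 libraries. The centred values of a library were then regressed on log2 transcript length over the genes tested. This slope ran between -0.29 (breast 18) and 0.20 (melanoma 5). A negative slope means more reads on short transcripts than in the average library, and a slope of 0 does not mean that a library has no length trend. The 3 lowest slopes were those of breast 18 (-0.29), melanoma 3 (-0.27) and breast 19 (-0.23), the 3 libraries with the highest summed level of members. Within the breast model, the order of the 6 libraries by falling sum was the same as by rising slope, and so it was within the lung model. In melanoma it held but for replicates 5 and 6, whose sums were 6453 and 6343 CPM. Breast 18 and 19 also had the 2 lowest totals, 7366250 and 7432159 counts, while melanoma 3 had 12956332.

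Libraries of different models with close slopes can be set side by side. Melanoma 3 and breast 18, with slopes of -0.27 and -0.29, held 19368 and 25300 CPM. Melanoma 1, with a slope of 0.05, held 10342 CPM, against 10195 CPM in breast 15 and 12329 CPM in breast 16, both with slopes of 0.04. Melanoma 2 and breast 14, with slopes of 0.07 and 0.08, held 9593 and 9647 CPM. Breast 17 and lung 13, with slopes of -0.01 and 0.00, held 12876 and 10556 CPM. The members are themselves among the short transcripts from which the slope was computed, and whether the slope sets the sum or comes with it was not tested.

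A further pair of gene sets with short transcripts showed the same 3 libraries at the top. The mitochondrial ribosomal proteins (75 genes) summed to 5801 CPM in melanoma 3, 5212 in breast 18 and 4674 in breast 19, against 2639 to 3821 CPM in the other libraries. Subunits of the respiratory chain (90 genes) summed to 24026 CPM in melanoma 3, 17031 in breast 18 and 17146 in breast 19, against 10736 to 15310 CPM in the others. Neuron markers were lowest in breast 18 (2851 CPM) and melanoma 3 (3302 CPM), against 3887 to 7316 CPM in the other libraries. The cell cycle list summed to 1685 to 1883 CPM in melanoma 1 to 3, 406 to 801 in melanoma 4 to 6, 913 to 1408 in breast libraries and 393 to 832 in lung libraries.

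**Figure D3:**
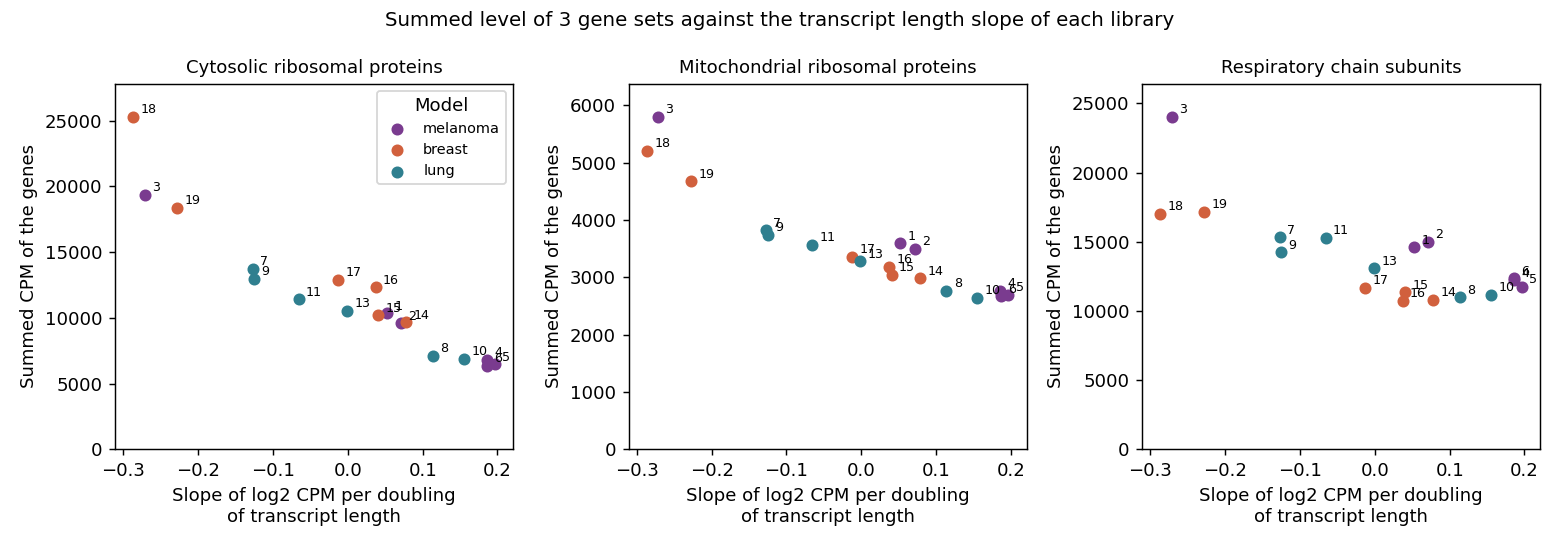
Summed CPM (vertical axis) of the cytosolic ribosomal protein members, the mitochondrial ribosomal proteins and the respiratory chain subunits against the transcript length slope of the library (horizontal axis), 1 point per library with its replicate number, coloured by model. Sums are highest at the left, where breast 18, melanoma 3 and breast 19 stand, and the cytosolic set reaches from 6343 to 25300 CPM.

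Between melanoma and lung, few members differed. In edgeR's quasi-likelihood test over 17174 genes, with Benjamini-Hochberg adjustment and calls at an adjusted p under 0.05, 1 of 60 members was higher and 1 lower in melanoma, against 8.51% and 14.7% of all genes tested. Rpl30, a large subunit protein that also controls the splicing and translation of its own mRNA in yeast, had 59.2, 77.8 and 181 CPM as lowest, median and highest melanoma library, against 40.9, 52.9 and 64.0 CPM in lung libraries. The 2 lowest melanoma libraries lay within the lung range and the other 4 above it, and the log2 fold change was 0.80 ± 0.24 (SE, adjusted p = 0.020). Rpl36a, a large subunit protein near the exit site of transfer RNA, had 4.12, 4.92 and 6.42 CPM in melanoma libraries, against 5.56, 7.31 and 9.19 CPM in lung libraries. Those ranges overlapped, the log2 fold change was -0.50 ± 0.17 (SE, adjusted p = 0.039), and the call was lost in 9 of the 18 fits that left out 1 library.

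The median member stood at -0.12 on the log2 scale for melanoma over lung, against 0.02 for all genes tested, with 20 members above 0 and 40 below. Small subunit members had a median of -0.19 and large subunit members of -0.05. Without melanoma 3, breast 18 and breast 19 the median was -0.40 and 22 of 60 members passed the test downwards and 2 upwards, against 20% and 13.6% of all genes. Leaving out melanoma 3 alone gave 11 lower members, against 16.6% of all genes. With each library's length trend removed, 5 members passed upwards and 3 downwards, against 9.78% and 16.4% of all genes, so that both the number of calls and the balance of directions depended on the fit.

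Breast libraries had more ribosomal protein mRNA than lung libraries for a small group of members. Of 60, 7 were called higher, against 11.2% of all genes tested, a share of 11.7% that lies close to this background. None was called lower by edgeR, against 7.16% of all genes, with 0 at an unadjusted p under 0.05; DESeq2, limma voom and limma on the deposited CPM called 0 as well. The median member stood at 0.38 on the log2 scale, against -0.02 for all genes, with 47 members above 0 and 13 below. Without the 3 libraries with the lowest length slopes it was -0.08, against -0.06 for all genes, with 24 members above 0 and 36 below. With the length trend removed it was 0.26, against -0.02 for all genes, with 44 members above 0 and 16 below. The rise of the median member was thus not seen without those 3 libraries. With all libraries kept, ranges did not overlap for Rps3a1, Rpl34, Rps2, Rpl30 and Rpl3, 5 of 60 members, against 8.94% of all genes. No member stood wholly below its counterpart range in this comparison (5.91% of all genes), wholly above or below it in melanoma over lung (4.69% and 9.63%), or wholly above or below it in melanoma over breast (4.98% and 12.1%).

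Rps3a1, a small subunit protein at the mRNA exit side, had 175, 257 and 474 CPM as lowest, median and highest breast library, against 78.4, 98.7 and 129 CPM in lung libraries. All 6 breast libraries lay above all 6 lung libraries, and the log2 fold change was 1.47 ± 0.28 (SE, adjusted p = 0.00092). It was 1.07 without the 3 libraries but was called there and in all 18 fits that left out 1 library, the adjusted p reaching 0.0042 at most. Rpl34, a large subunit protein, had 138, 195 and 434 CPM in breast libraries, against 55.6, 90.4 and 124 CPM in lung libraries. Again no breast library reached down to the lung range, with a log2 fold change of 1.34 ± 0.32 (SE, adjusted p = 0.0058).

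Rps2, a small subunit protein at the mRNA entry side, had 155, 205 and 356 CPM in breast libraries, against 73.9, 118 and 137 CPM in lung libraries. Its log2 fold change was 1.02 ± 0.29 (SE, adjusted p = 0.016), and without breast 18 the adjusted p was 0.065. Rpl30 had 70.2, 85.4 and 131 CPM in breast libraries, against 40.9, 52.9 and 64.0 CPM in lung libraries, with a log2 fold change of 0.85 ± 0.24 (SE, adjusted p = 0.018). That call was lost without breast 18 and without breast 19. Rpl30 was thus above lung in both other models, though both comparisons use the same 6 lung libraries.

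The other 3 calls were weaker. Rpl3, which reaches into the catalytic centre, had 89.0, 106 and 199 CPM in breast libraries, against 60.7, 76.2 and 88.9 CPM in lung libraries, so that the ranges missed each other only narrowly. Its log2 fold change of 0.76 ± 0.25 (SE, adjusted p = 0.042) was 0.22 when its 2 pseudogenes were added, which hold more reads than the gene. Rpl22, known for its part in T cell development, stood at 0.69 ± 0.23 (SE, adjusted p = 0.047) and Rpl36al, the close copy of Rpl36a, at 0.84 ± 0.27 (SE, adjusted p = 0.037). The ranges of both overlapped those of lung libraries. None of these 3 was called without melanoma 3, breast 18 and breast 19, and each was lost in 9 to 14 of the 18 fits that left out 1 library.

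Other lists also differed between breast and lung libraries. Erythroid markers, all 5 of which passed upwards in breast over lung, summed to 250 to 892 CPM in breast libraries and 79 to 435 CPM in lung libraries. Of the 15 cell cycle genes, 5 were higher in breast over lung and 4 in melanoma over lung. Of all genes tested, 11.2% and 8.51% were higher in these comparisons. The cell cycle list was not particular to breast, with mean sums of 1187 CPM in melanoma, 1129 in breast and 611 in lung libraries. The part of either list in the member values was not tested. With the mean of the cell cycle list as a covariate, 1 member was higher and 3 lower in breast over lung, and 0 higher and 23 lower in melanoma over lung. Of all genes, 8.73% were higher and 9.7% lower in breast over lung in that fit, and 15.7% higher and 21.5% lower in melanoma over lung.

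Melanoma libraries had less mRNA of 8 members than breast libraries. No member was called higher by edgeR, with 1 at an unadjusted p under 0.05, against 9.76% of all genes tested; DESeq2, limma voom and limma on the deposited CPM each called 1. The 8 of 60 lower members make 13.3%, against 19.2% of all genes called lower, so that their number does not stand above the background. The median member stood at -0.44, against 0.04 for all genes tested, with 9 members above 0 and 51 below. The medians were -0.63 for small subunit members and -0.31 for large subunit members.

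Rps3 had the values given above, with all melanoma libraries but replicate 3 below the lowest breast library, and a log2 fold change of -1.27 ± 0.38 (SE, adjusted p = 0.014). Rpl18, a large subunit protein, had 38.0, 53.3 and 120 CPM in melanoma libraries, against 82.2, 111 and 186 CPM in breast libraries, with a log2 fold change of -0.96 ± 0.28 (SE, adjusted p = 0.012). The calls of Rps3 and Rpl18 were lost without breast 18 and without melanoma 4.

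Rpl34 was lower in melanoma by the same kind of margin, with 70.0, 92.7 and 229 CPM in melanoma libraries, against 138, 195 and 434 CPM in breast libraries, at -1.04 ± 0.32 (SE, adjusted p = 0.019). Melanoma 3 was the single melanoma library within the breast range. Further calls were Rps20, at -0.83, and Rpl22, at -0.70. The calls of Rpl34, Rps20 and Rpl22 were each lost in 5 to 6 of the 18 fits that left out 1 library, among them those without breast 18 and without breast 19.

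The number of lower members in melanoma turned on single libraries. It was 34 of 60 without melanoma 3, against 23.4% of all genes. It was 1 without breast 18, against 16% of all genes, and 1 without melanoma 4, against 16.1%. Without melanoma 3, breast 18 and breast 19 together, 11 members were lower, 7 of them among the 8, and 2 were higher, against 19.3% and 15% of all genes. With the length trend removed, 16 were lower and 2 higher, against 21.5% and 11.8% of all genes, and all 8 were among the 16. For breast over lung, the same steps left 4 higher and 4 lower members without the 3 libraries (11.7% and 13.3% of all genes) and 14 higher and 2 lower members with the length trend removed (13.4% and 9.04%). A test of any difference among the 3 models called 9 of 60 members (15%), against 35.8% of all genes, 24 without the 3 libraries, against 48.1%, and 24 with the length trend removed, against 41.5%. The length of a gene was that of its longest principal transcript, where one was listed. For Rps20 (3706 bases) and Rpl18 (2989 bases) it lay above the median of all genes tested (2787 bases). The fit with the length trend removed therefore did not treat these members as short.

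**Figure D4:**
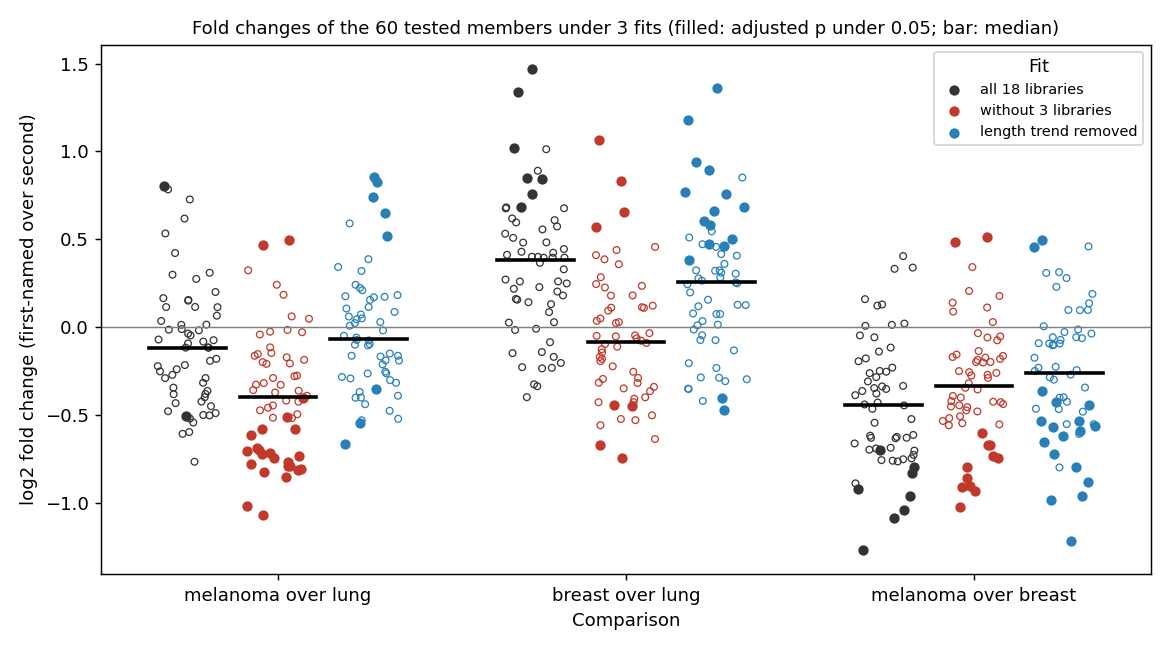
Log2 fold changes of the 60 tested members in the 3 comparisons, from all 18 libraries (black), without melanoma 3, breast 18 and breast 19 (red) and with the length trend of each library removed (blue). Filled points passed an adjusted p under 0.05 and bars mark the medians, which for all libraries stand at -0.12, 0.38 and -0.44.

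A second scaling took out what the members shared. Library sizes were set to the members' summed reads, with TMM factors among the members, so that a fold change is that of a member's place in the ribosomal protein mRNA pool. This moved the median of all genes tested to 0.19 for melanoma over lung, -0.36 for breast over lung and 0.55 for melanoma over breast, while the members' medians were -0.04, -0.02 and 0.00. More members were called: 18 of 60 (30.0%) differed among the models, against 22.6% of all genes. Standard errors were smaller too, for Rps3a1 in breast over lung 0.15 in place of 0.28. This scaling takes the members' shared variation out of their own values and puts it into those of the other genes. The members' medians, smaller standard errors and added calls follow from that in part by construction. The share of all genes called is therefore not a like background for the members, here or in the pool comparisons below.

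For melanoma over lung, 5 members were higher in the pool, against 4.78% of all genes, and 2 lower, against 8.27%. The higher ones were Rpl30 at 0.84 ± 0.15 (SE, adjusted p = 0.00052), Rps3a1 at 0.82 ± 0.15 (SE, adjusted p = 0.00044), Rpl3, Rpl27 and Rpl29. Rpl3 stood at 0.66 but at 0.17 with its pseudogenes added, where it was not called. Rps13, 1 of the lower ones, stood at -0.72 and was counted on 575 reads. Its call was lost in 17 of the 18 fits without 1 library and with the length trend removed.

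For breast over lung, 4 members were higher in the pool, against 3.62% of all genes, and 3 lower, against 5.2%. Rps3a1 stood at 1.04 ± 0.15 (SE, adjusted p = 4.7e-05) and Rpl34 at 0.91 ± 0.15 (SE, adjusted p = 0.00035), and Rps2 (0.63) and Rps7 (0.57), a small subunit protein that can bind Mdm2, followed. Rps2 and Rps7 were no longer called with the length trend removed, nor was Rps7 with library sizes set to the summed reads without TMM factors. The lower members were 3 of the large subunit: Rpl27a at -0.76 ± 0.18 (SE, adjusted p = 0.0077), Rpl31 at -0.70 ± 0.14 (SE, adjusted p = 0.0022), and Rpl39, which lines the exit tunnel, at -0.60 ± 0.14 (SE, adjusted p = 0.0079). With pseudogenes added Rpl31 stood at -0.34 and was not called.

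For melanoma over breast, 5 members were higher in the pool, against 13.5% of all genes, and 6 lower, against 8.97%. All 5 higher ones belong to the large subunit. Rpl15 had 67.5, 77.8 and 125 CPM in melanoma libraries, against 52.1, 59.1 and 82.5 CPM in breast libraries, and stood at 0.90 ± 0.19 in the pool (SE, adjusted p = 0.0018). Rpl31 stood at 0.83 ± 0.14 (SE, adjusted p = 0.00024), and at 0.56 with its pseudogenes, where it was still called. Rpl27a (0.67), Rpl27 (0.65) and Rpl7 (0.52) made up the rest. Among the lower ones were Rps3 at -0.77 ± 0.17 (SE, adjusted p = 0.0022), Rpl34 (-0.55), Rpl18 (-0.52) and Rpl12 (-0.51). With the length trend removed, Rpl34 (-0.24) was not called, and without melanoma 3, breast 18 and breast 19 Rpl27 (0.49) was not.

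Over the fits without 1 library, the higher members numbered 5 to 6 in melanoma over lung, 4 to 5 in breast over lung and 5 to 7 in melanoma over breast, and the lower members 0 to 2, 3 to 4 and 4 to 8. Without melanoma 3, breast 18 and breast 19, the members lower in melanoma than lung numbered 7 in the pool, and with the length trend removed 0. No share of all genes is given for any of these other pool fits, so that their counts cannot be set against a background. For Rps3a1 in breast over lung the log2 fold change stayed between 0.99 and 1.1 over the fits without 1 library. Of the calls scaled to the whole table, 1 of 1 higher and 0 of 1 lower for melanoma over lung, 3 of 7 higher for breast over lung and 5 of 8 lower for melanoma over breast were also called in the pool in the same direction.

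**Figure D5:**
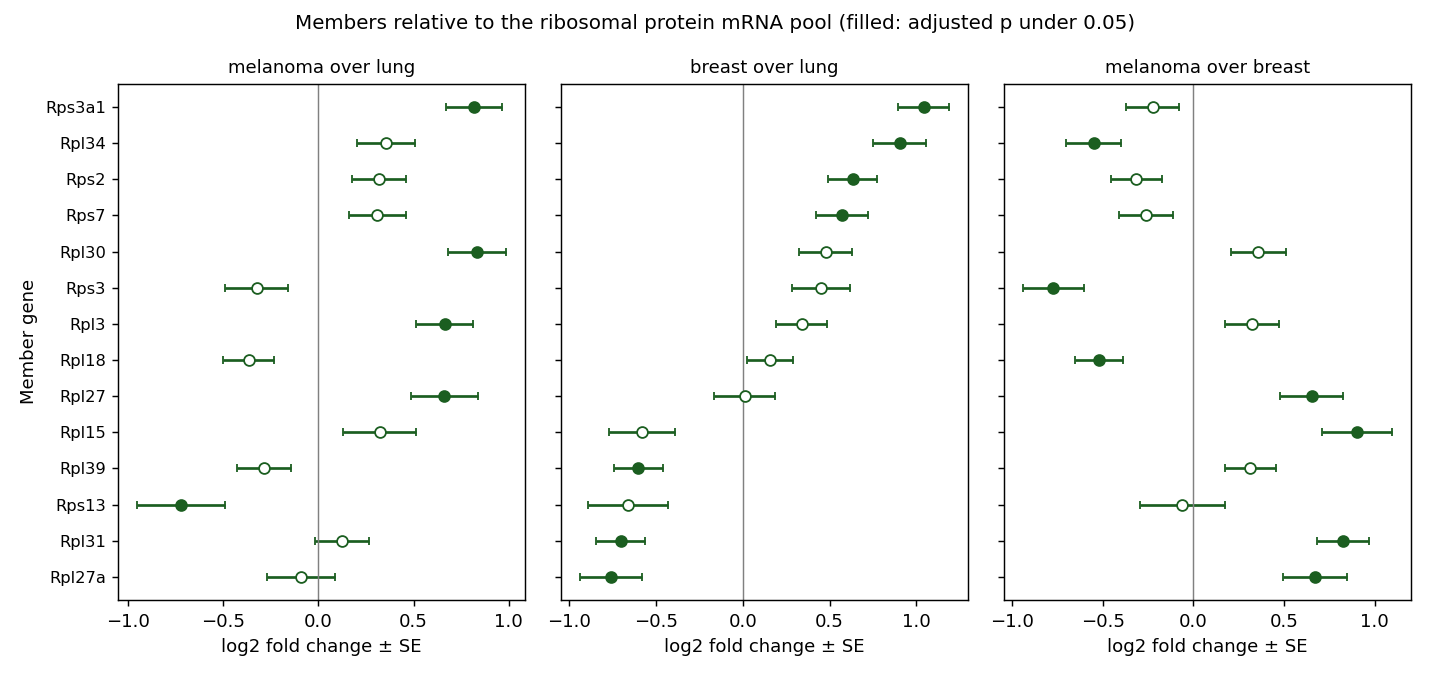
Log2 fold change with standard error of 14 members relative to the ribosomal protein mRNA pool, in the 3 comparisons, ordered by breast over lung. Filled points passed an adjusted p under 0.05, with Rps3a1 to the right in both comparisons with lung and Rpl15, Rpl31, Rpl27a and Rpl27 to the right in melanoma over breast.

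Several members have a partner that other tissues use. Rps27l, a p53-induced partner of Rps27, had 31.0, 68.7 and 204 CPM in melanoma libraries, 50.6, 63.2 and 137 CPM in breast libraries and 28.5, 62.4 and 81.1 CPM in lung libraries. It was not called in any comparison, and melanoma 1 and 2, with 91.0 and 90.6 CPM, stood above all lung libraries. Rps27 itself had only 472 reads, at 98.6% shared sequence. Rpl3l, the form of striated muscle, had 90 reads against 22211 of Rpl3, and Rpl10l, the form of testis, had 1. In the count table, outside the rule's source, Rpl39l had 60 reads against 20996 of Rpl39, Rps4l had 3844 against 66141 of Rps4x, and Rpl10 had 1750.

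The stalk proteins and Rpsa, also known as a laminin receptor precursor, were not called in the rule's set: Rplp1 had 474, 614 and 1339 CPM in melanoma libraries, 613, 777 and 1322 CPM in breast libraries and 453, 728 and 827 CPM in lung libraries. Rpsa had medians of 157, 206 and 204 CPM in melanoma, breast and lung libraries. The stalk proteins Rplp0 and Rplp2 stand in the count table alone. Rplp0 was higher in breast than in lung (1058 ± 496 and 491 ± 142 CPM, SD, n = 6 each; log2 fold change 1.11 ± 0.36, edgeR adjusted p = 0.038). Rplp2 was lower in melanoma than in breast (83.1 ± 39.0 and 160 ± 63.7 CPM, SD, n = 6 each; log2 fold change -0.94 ± 0.28, edgeR adjusted p = 0.017). Among all 21 ribosomal protein genes outside the expression table, 18 were tested: 0 were called for melanoma over lung, 3 higher and 0 lower for breast over lung, and 0 higher and 5 lower for melanoma over breast. Of all genes tested, 8.51% were higher and 14.7% lower for melanoma over lung, 11.2% and 7.16% for breast over lung, and 9.76% and 19.2% for melanoma over breast, and the counts of the lists below stand beside the same shares.

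Other genes of ribosome supply were read from lists. Of 20 genes of ribosome biogenesis, which build the subunits in the nucleolus, 1 was higher and 0 lower in melanoma over lung, 10 higher and 0 lower in breast over lung, and 0 higher and 10 lower in melanoma over breast. Their median log2 fold changes were 0.23, 0.65 and -0.36, at a median transcript length of 2973.5 bases, longer than that of all genes tested. Ddx21, a nucleolar helicase, had 92.4 ± 33.9 CPM in melanoma, 159 ± 28.5 CPM in breast and 66.3 ± 8.17 CPM in lung libraries (SD, n = 6 each), with a log2 fold change of 1.26 ± 0.20 for breast over lung. Unlike the members, Ddx21, Mybbp1a and Nolc1 had their highest library in breast 16.

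Myc, a transcription factor that drives ribosome production, had 15.9 ± 8.27 CPM in melanoma, 104 ± 19 CPM in breast and 42.0 ± 12.2 CPM in lung libraries (SD, n = 6 each). It passed the edgeR test in all 3 comparisons, at -1.39, 1.30 and -2.70 for melanoma over lung, breast over lung and melanoma over breast. Of 12 regulators in all, 3 were higher and 2 lower for melanoma over lung, 3 and 0 for breast over lung, and 2 and 2 for melanoma over breast. Of 20 further mRNAs known for a terminal oligopyrimidine tract, which encode translation factors and the like, 0 were called for melanoma over lung, 2 were higher in breast over lung and 2 lower in melanoma over breast. Both times they were Pabpc1, the poly(A) binding protein, and Eif2s3x, an initiation factor subunit. Of 72 tested mitochondrial ribosomal protein genes, 0 were called for melanoma over lung, 3 were higher for breast over lung and 6 lower for melanoma over breast.

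Pseudogene names held their own differences. Of 300, 47 were tested, of which 3 were lower in melanoma over lung, 4 were higher and 3 lower in breast over lung, and 7 were lower in melanoma over breast. Rps13-ps1 had 0 to 0.0821 CPM in melanoma libraries and 0 to 0.136 CPM in breast libraries, against 25.0 to 93.2 CPM in lung libraries. Rps15a-ps8 and Rpl15-ps2 likewise had at most 1 read in any melanoma or breast library, against 161 to 597 and 10 to 58 reads in lung libraries. For Rps13 itself, with 0.836 to 3.84 CPM in melanoma libraries, 1.5 to 3.82 CPM in breast libraries and 2.16 to 4.40 CPM in lung libraries, the copies therefore weigh differently between models.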

How the data were processed

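Poly(A)+ RNA-seq of 18 mouse brains, 6 per model, was analysed. Libraries were directional (antisense), per the labels' protocols; bcl2fastq and the build GRCm39 are named per the submitters' processing notes, and no source used here gives an aligner, counter or strand setting. The deposited count table holds raw counts. The deposited CPM table holds CPM on adjusted library sizes; whole reads were recovered from 100% of values in 15366 matched rows (tolerance 0.01), 99.8% equal to the counts. Gene IDs were looked up in GENCODE M21 (GRCm38) for symbols and transcript lengths (52083 of 55416 genes, 99.8% of reads). Starts came from RefSeq GRCm38.p6; no coordinates were mixed. RPS3A was matched to Rps3a1, whose reads were equal in all 18 libraries.

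The counts of 17174 genes kept by filterByExpr entered the robust quasi-likelihood fit of edgeR 4.0.16 under R 4.3.3, with TMM factors and a coefficient for each model; adjusted p under 0.05 was a call. Alternatives used DESeq2 1.42.0, limma 3.58.1 (voom, and log2 of CPM + 1), other scalings, filters, left-out libraries, a cell cycle covariate and a fold threshold of 1.5; those with pseudogenes summed, or with the reads of Gm11361 and Gm6525 in place of Rps18 and Rpl36al, were chosen after seeing the data. The fit was tested on simulated data. No library repeated another of the same model (smallest chi-square per degree of freedom 2.82). Libraries of different models were not compared in this way. Replicate number 12 was not analysed here. P-values set a difference between models against the spread between these brains. With 1 cell line per model they do not cover differences between lines of a cancer type. Members and lists were chosen with earlier results of these data known. Named members were those with the smallest p among the calls of each comparison (8 each way, and 4 each way in the pool), the 5 highest per kilobase, the 5 lowest, paralogue pairs, stalk genes and Rpsa; Rpl7, Rpl12, Rpl29 and other members in the pool or sequence paragraphs were named after their values were seen. From other lists the 3 called genes with the smallest p could be named. Some members that this rule gives are counted in the totals but not reported here by name.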

Additional observations from a re-analysis of the deposited data

Results flagged for a closer look

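Within a model, 1 library stood far from the other 5 for 4 of 84 groups examined (log2 of CPM + 0.25, the gap to the nearest library being a large part of the range). Chance gives about 1 in 20 such groups. All 4 were melanoma replicate 3, the highest of its model. Rps3 had 1829 CPM there, against 502 to 794 CPM in the 5 others. Rps14 had 1065 CPM, against 277 to 426. Rps3a1 had 352 CPM, against 113 to 173, and Rpl3 had 224 CPM, against 77.8 to 116. The transcript length slope of this library was -0.27, while the 5 others had 0.05 to 0.20, and the part of that slope in these values was not tested.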

How the results depend on the processing

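No named fold change turned its sign. With 1 library left out, 511 of the named members' values kept their side of the threshold and 83 lost the call. These numbers take calls scaled to the whole table and calls in the pool together. The stability of the whole-table calls alone therefore cannot be read from them. Members higher in melanoma than lung (1 in the report) numbered 2 with DESeq2 size factors, library totals, no filter on low counts, DESeq2 or without the 3 libraries poor in long transcripts, 5 with the length trend removed, and 0 against 1.5-fold or with the cell cycle covariate. Members lower in melanoma than lung (1) numbered 0 with DESeq2 size factors, upper quartile, no filter, limma on the deposited CPM, against 1.5-fold or with pseudogenes summed, 2 with voom, 3 with the length trend removed, 22 without the 3 libraries and 23 with the cell cycle covariate. Members higher in breast than lung (7) numbered 4 with upper quartile or without the 3 libraries, 14 with the length trend removed, and 1 against 1.5-fold or with the cell cycle covariate. Lower ones (0) numbered 4 without the 3 libraries, 2 with the length trend removed and 3 with the cell cycle covariate. Members higher in melanoma than breast (0) numbered 2 without the 3 libraries or with the length trend removed, and 1 with DESeq2 size factors, upper quartile, library totals, no filter, DESeq2, voom, limma on CPM or the cell cycle covariate. Lower ones (8) numbered 5 with no filter or with 12 libraries, 0 against 1.5-fold, 16 with the length trend removed and 13 with the cell cycle covariate. Members with any difference (9) numbered 24 without the 3 libraries, with the length trend removed and with the cell cycle covariate. Shares of all genes are given above for the fits without the 3 libraries and with the length trend removed. With the cell cycle covariate they are given only for the comparisons with lung. For the remaining alternative fits no share is given, so that their counts cannot be set against a background.

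In the pool, members lower in melanoma than lung (2) numbered 0 with summed reads alone or the length trend removed, and 7 without the 3 libraries. Those higher in breast than lung (4) numbered 7 without the 3 libraries and 2 with the length trend removed. Those higher in melanoma than breast (5) numbered 10 with summed reads alone and 3 without the 3 libraries, and the lower ones (6) numbered 2 with the length trend removed. With ribosomal proteins outside the rule and pseudogenes added, the mean sum rose in all 3 models. It was 12900 CPM in melanoma, 18846 in breast and 13820 in lung libraries, against 9819, 14787 and 10442 CPM. The cause was not tested for these shifts, and no share of all genes is given for these pool fits.

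With 1 library left out, members numbered 1 to 3 (higher) and 0 to 11 (lower) for melanoma over lung, 2 to 10 and 0 to 0 for breast over lung, 0 to 1 and 1 to 34 for melanoma over breast, and 4 to 31 for any difference. Breast over lung gave 2 without breast 18, 3 without breast 19, and 4 without melanoma 5 or lung 8, 10 or 11; melanoma over breast gave 16 without breast 14, 3 without breast 19, melanoma 5 or melanoma 6, and 5 without lung 11. Shares of all genes stand above only for some counts of members lower in melanoma, without melanoma 3, breast 18 or melanoma 4. The other counts of left-out fits cannot be set against a background. In the pool the members numbered 5 to 6 and 0 to 2, 4 to 5 and 3 to 4, and 5 to 7 and 4 to 8, again without a share of all genes beside them. Mean sums were 7909 to 10514 CPM (melanoma), 12684 to 15815 (breast) and 9788 to 11150 (lung). No paired analysis was possible because replicate numbers are not shared between models. Members under about 2 CPM rest on few reads per library.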
